A study of Mus musculus with 16 samples.

Results

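The genes described here are 10 components of the unfolded protein response of the endoplasmic reticulum (ER), out of 19108 gene symbols listed in each library. The rule lists them by name and applies no cut on a measured value, but the names were chosen with earlier results of these data known. They are the sensors Ern1 and Atf6, the transcription factor Xbp1 and the degradation factors Herpud1 and Edem1. The chaperones and co-chaperones among them are Hspa5, Hsp90b1, Dnajc3, Dnajb9 and Sdf2l1. All 10 were listed once in each of the 16 libraries and all passed the filter on low counts. The question was how their mRNA differed between transgenic and wild-type muscle, and whether sensors and chaperones differed in the same way.

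Poly(A)-selected RNA of whole quadriceps, the large extensor muscle of the thigh, was sequenced from C57BL/6 mice aged 6 months and fed regular chow. There were 4 groups of 4 libraries: Tg females and Tg males of genotype ANT1(Tg)/+, which carry a transgene for ANT1, and WT females and WT males. ANT1, encoded by Slc25a4, is the adenine nucleotide translocase of the inner mitochondrial membrane. The promoter that drives the transgene is not given in the sources used here, and controls were littermates only where that was possible.

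The ER folds membrane and secreted proteins, and in muscle fibres much of it is specialised as sarcoplasmic reticulum, which stores calcium. When unfolded proteins accumulate there, the membrane sensors IRE1 (Ern1), ATF6 and PERK (Eif2ak3) are released from the chaperone BiP (Hspa5). IRE1 then cuts a short intron out of Xbp1 mRNA, ATF6 is cleaved in the Golgi to free a transcription factor, and PERK slows translation and favours synthesis of ATF4. XBP1 and ATF6 are known to switch on ER chaperones and degradation genes, while ATF4 is also produced under stresses that do not begin in the ER.

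The sequences below show promoter elements known from target genes of this response, and they are given for 4 members whose mRNA behaved differently in the comparisons that follow. Each is the 250 bases before the RefSeq gene start (GRCm38.p6), 5′ to 3′ on the strand of the gene, with matches to 4 motifs in capitals. The motifs, searched on both strands from 250 bases before to 50 bases after the start, were the ER stress element ERSE (CCAAT, 9 bases, then CCACG), its shorter form ERSE-II (ATTGG, 1 base, then CCACG), the core TGACGTG of the unfolded protein response element, and the C/EBP-ATF composite TGATGNAA.
Hspa5 (chr2:34771840-34772089, plus strand): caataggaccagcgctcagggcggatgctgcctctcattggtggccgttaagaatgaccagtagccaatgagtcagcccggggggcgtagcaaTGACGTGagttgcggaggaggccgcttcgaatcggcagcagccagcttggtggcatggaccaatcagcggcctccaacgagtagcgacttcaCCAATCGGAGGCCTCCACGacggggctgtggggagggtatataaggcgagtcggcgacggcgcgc
Dnajc3 (chr14:118937682-118937931, plus strand): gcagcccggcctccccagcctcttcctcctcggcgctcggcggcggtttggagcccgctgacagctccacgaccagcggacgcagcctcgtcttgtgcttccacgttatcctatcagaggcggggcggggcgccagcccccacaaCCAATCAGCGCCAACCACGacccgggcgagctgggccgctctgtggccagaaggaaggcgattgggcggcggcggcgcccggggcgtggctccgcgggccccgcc
Herpud1 (chr8:94386179-94386428, plus strand): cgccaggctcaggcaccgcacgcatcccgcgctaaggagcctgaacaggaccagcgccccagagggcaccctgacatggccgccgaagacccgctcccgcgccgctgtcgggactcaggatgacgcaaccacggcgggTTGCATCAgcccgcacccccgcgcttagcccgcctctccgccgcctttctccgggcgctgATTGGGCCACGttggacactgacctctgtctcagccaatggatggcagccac
Ern1 (chr11:106487797-106488046, minus strand): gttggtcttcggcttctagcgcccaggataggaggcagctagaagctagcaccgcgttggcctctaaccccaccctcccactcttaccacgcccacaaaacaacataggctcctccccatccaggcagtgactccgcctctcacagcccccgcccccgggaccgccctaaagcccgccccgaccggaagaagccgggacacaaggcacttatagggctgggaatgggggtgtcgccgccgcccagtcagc

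In the Hspa5 promoter the capitals mark TGACGTG, whose first base lies at -157 from the start, and an ERSE at -65. The Dnajc3 promoter held an ERSE at -105. In the Herpud1 promoter the capitals mark a C/EBP-ATF match on the opposite strand at -112 and an ERSE-II at -52. Of the 9 member promoters matched in RefSeq, 3 held an ERSE (Hspa5, Dnajc3 and Hsp90b1, the last with 1 match on each strand at -212 and -107), against 39 of 32851 promoters in all (0.119%). ERSE-II was found in 12 of all promoters (0.037%), TGACGTG in 661 (2.012%) and the C/EBP-ATF composite in 1304 (3.969%). These motifs overlapped each other in none of the member windows. The letters of these motifs are not in the windows of Ern1, Xbp1, Dnajb9, Sdf2l1 and Edem1. Atf6 had no matched promoter and was not searched. Only exact matches were marked, so elements that differ in a base are not shown. A match is a run of letters and not a measured binding site. The elements are known from target genes of this response, to which members belong, so these shares are not a test of enrichment.

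The intron that IRE1 removes from Xbp1 is shown because the counts cannot read it. In the GENCODE M21 transcript ENSMUST00000063084.15 it spans bases 818 to 843, a length of 26 bases, given in capitals between 20 bases of flanking exon on each side.
Xbp1: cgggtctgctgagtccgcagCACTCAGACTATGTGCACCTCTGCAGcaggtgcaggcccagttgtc
Counts per gene symbol add spliced and unspliced Xbp1 mRNA together, so the values of Xbp1 below are total mRNA and do not measure IRE1 activity.

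Library totals were 17.4 to 30.7 when counted in units of 1000000, and levels are given as CPM, counts per 1000000, after scaling for library composition. Slc25a4 averaged 9755 ± 876 CPM in Tg muscle and 3399 ± 408 CPM in WT muscle (SD, n = 8 each), with every Tg library above every WT library. Its log2 fold change was 1.53 (SE 0.077), with an adjusted p of 4.89e-10 in edgeR's quasi-likelihood test with Benjamini-Hochberg adjustment over 13666 tested genes. The counts do not separate transgene from endogenous transcripts. The 9 muscle fibre markers (among them Acta1, Ckm and Myh4) summed to 131767 to 188854 CPM in Tg libraries and 141491 to 220974 CPM in WT libraries, so fibre transcripts were abundant in all 16. The median sum was lower in Tg libraries, at 147278 CPM against 188064 CPM in WT libraries, and the part of this in the members' values was not tested. In whole tissue, fewer cells of a type and less RNA per cell cannot be told apart.

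Averaged over the sexes, Ern1, Atf6, Herpud1 and Dnajb9 were higher in Tg muscle, Dnajc3 was lower, and Hspa5, Hsp90b1, Sdf2l1, Xbp1 and Edem1 did not pass the test. A gene is called here when its adjusted p from edgeR's quasi-likelihood test is under 0.05. Thus 5 of 10 members were called, against 30.4% of all tested genes, with 4 higher (17.2% of all genes) and 1 lower (13.3%). The median log2 fold change was 0.13 over the members and -0.012 over all tested genes. Every Tg library lay above every WT library for 3 members, Ern1, Atf6 and Herpud1, an arrangement seen in 5.23% of tested genes, and below every WT library for Dnajc3, as in 2.69%.

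**Figure D1:**
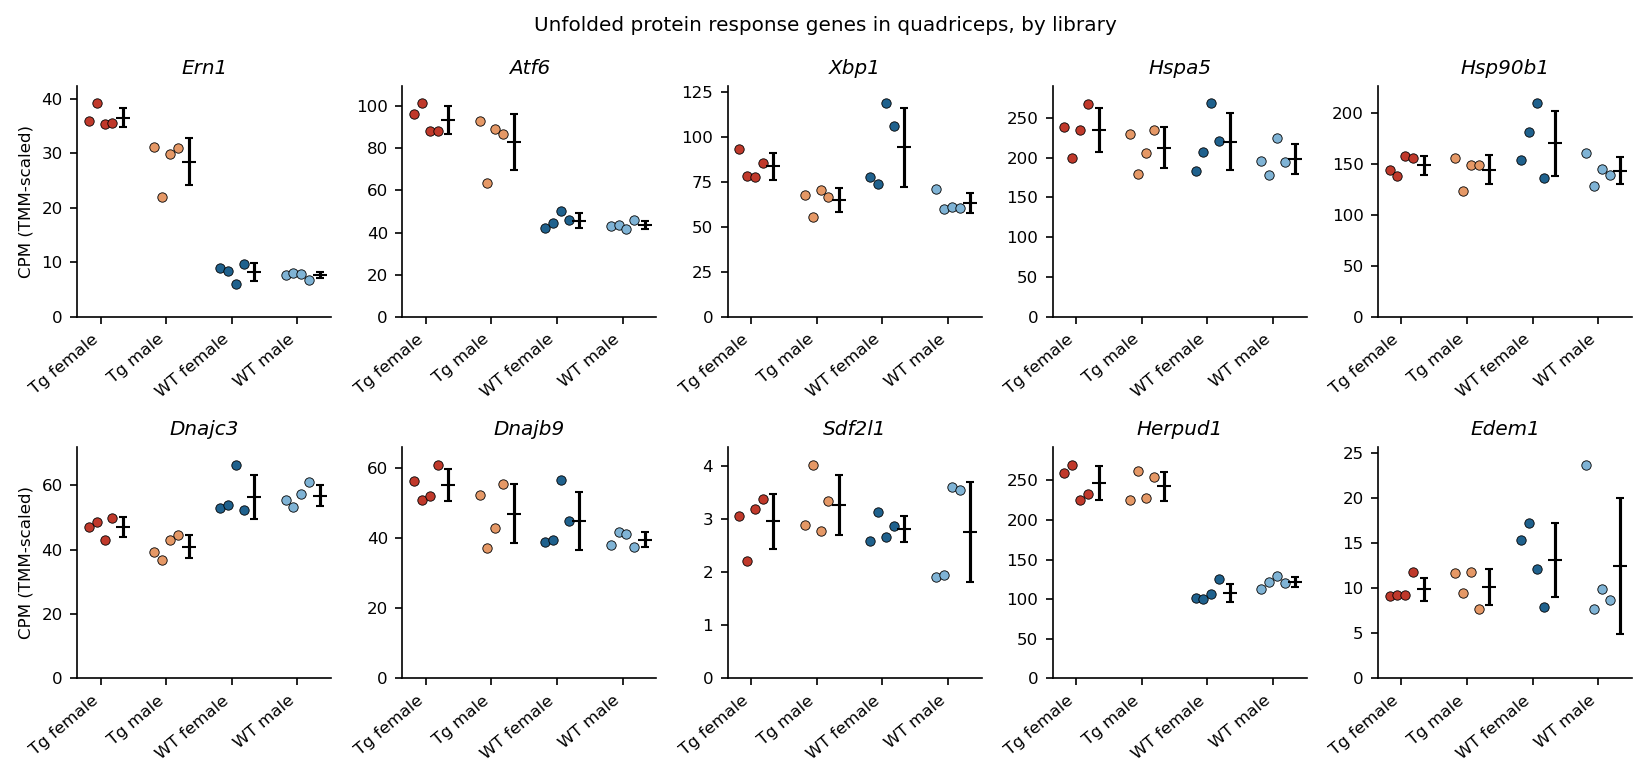
CPM of each of the 10 genes in every library (dots), by group on the x axis, with bars at the group mean ± SD (n = 4 per group) and each y axis starting at 0. The Tg dots of Ern1, Atf6 and Herpud1 lie above all WT dots, those of Dnajc3 lie below them, and the groups overlap for the other 6 genes.

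Ern1 (ENSMUSG00000020715.9, chr11:106394650-106487852, minus strand) encodes IRE1, the kinase and ribonuclease of the ER membrane. It stood at 36.0, 39.2, 35.4 and 35.5 CPM in Tg females and 31.1, 22.1, 29.8 and 31.0 CPM in Tg males. In WT muscle the values were 8.89, 8.38, 6.03 and 9.76 CPM in females and 7.75, 8.05, 7.88 and 6.85 CPM in males. The lowest Tg library, Tg male 2, was still above the highest WT library, WT female 4. Ern1 was 4.06-fold higher in Tg muscle, a log2 fold change of 2.02 (SE 0.094, 95% interval 1.82 to 2.22, adjusted p 1.82e-10, edgeR quasi-likelihood), above 99.4% of tested genes. Behind these levels were 113 to 1009 counts per library.

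Atf6 (ENSMUSG00000026663.6, chr1:170704674-170867771, minus strand) encodes the sensor that is cleaved to release a transcription factor. Its level was 96.3, 101, 88.0 and 88.0 CPM in Tg females and 93.0, 63.5, 88.9 and 86.6 CPM in Tg males. WT females had 42.0, 44.4, 50.3 and 45.8 CPM and WT males 43.1, 43.7, 41.8 and 46.1 CPM. WT libraries lay close together, the Tg libraries were all higher, and Tg male 2 was again the lowest of them. Atf6 rose 1.97-fold in Tg muscle (log2 0.98, SE 0.072, 95% interval 0.83 to 1.13, adjusted p 4.15e-08, edgeR quasi-likelihood).

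Xbp1 (ENSMUSG00000020484.18, chr11:5520659-5525893, plus strand), the transcription factor downstream of IRE1, did not pass the test. Tg females had 93.4, 78.2, 77.7 and 85.4 CPM and Tg males 67.5, 55.4, 70.8 and 66.8 CPM, against 77.8, 73.8, 119 and 106 CPM in WT females and 71.2, 60.0, 61.0 and 60.6 CPM in WT males. The genotypes overlapped, and the highest values were those of WT female 3 and WT female 4. The log2 fold change of total Xbp1 mRNA was -0.063 (95% interval -0.26 to 0.14, adjusted p 0.647), and without WT female 3 it was 0.0026.

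Hspa5 (ENSMUSG00000026864.13, chr2:34771970-34777547, plus strand), which encodes BiP, the main ER chaperone of the Hsp70 family, was at 238, 199.9, 235 and 267 CPM in Tg females and 229.7, 179, 205 and 235 CPM in Tg males. WT females had 183, 207, 268 and 221 CPM and WT males 196, 178, 224 and 195 CPM. The genotypes overlapped over almost their whole ranges. The log2 fold change was 0.098 (95% interval -0.086 to 0.28, adjusted p 0.423, edgeR quasi-likelihood), an interval that reaches neither the change of Ern1 nor that of Atf6.

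Hsp90b1 (ENSMUSG00000020048.13, chr10:86690209-86705509, minus strand) encodes GRP94, the Hsp90 chaperone of the ER. It ranged from 123 to 157 CPM in Tg libraries and from 129 to 210 CPM in WT libraries, with WT female 3 highest, and its log2 fold change was -0.093 (95% interval -0.27 to 0.082, adjusted p 0.426). It shares 415 exonic bases with 1810014B01Rik on the opposite strand, and whether strand was used in counting is not given in the sources used here. Sdf2l1 (ENSMUSG00000022769.9, chr16:17130138-17132383, minus strand), a partner of BiP complexes, was scarce, with 41 to 95 counts per library. It ranged from 2.21 to 4.02 CPM in Tg libraries and from 1.92 to 3.61 CPM in WT libraries, and its log2 fold change of 0.16 had a wide interval (-0.17 to 0.48, adjusted p 0.474).

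Dnajc3 (ENSMUSG00000022136.8, chr14:118937976-118981697, plus strand), a BiP co-chaperone also known as an inhibitor of PERK, was the member that fell. Tg females had 47.0, 48.5, 42.9 and 49.8 CPM and Tg males 39.1, 36.8, 43.0 and 44.6 CPM. WT females had 52.8, 53.7, 66.4 and 52.2 CPM and WT males 55.5, 53.3, 57.3 and 61.1 CPM. The highest Tg library, Tg female 4, lay below the lowest WT library, WT female 4. The log2 fold change was -0.37 (SE 0.062, 95% interval -0.50 to -0.23, adjusted p 0.000298, edgeR quasi-likelihood), a level 0.776 times that of WT muscle.

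Dnajb9 (ENSMUSG00000014905.4, chr12:44205559-44210326, minus strand) encodes ERdj4, a co-chaperone that returns IRE1 to BiP and delivers proteins for degradation. Its CPM was 56.2, 50.8, 52.0 and 60.9 in Tg females and 52.3, 37.3, 43.0 and 55.3 in Tg males, and 38.9, 39.4, 56.6 and 44.8 in WT females and 38.0, 41.6, 41.1 and 37.4 in WT males. The genotypes overlapped, with Tg male 2 the lowest of all 16 and WT female 3 the second highest. WT female 4 (44.8 CPM) also lay above Tg male 3 (43.0 CPM). It passed the test narrowly, at 1.21-fold (log2 0.27, 95% interval 0.078 to 0.46, adjusted p 0.0331, edgeR quasi-likelihood). The call was lost when any of 8 single libraries was left out (Tg females 1 and 4, Tg males 1 and 4, WT females 1 and 2, WT males 1 and 4), with adjusted p of 0.0558 to 0.0750.

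Herpud1 (ENSMUSG00000031770.16, chr8:94386438-94395377, plus strand) encodes HERP, an ER membrane protein that organises the degradation complex. It was at 259.8, 270.0, 225 and 233 CPM in Tg females and 226, 262, 228 and 255 CPM in Tg males. In WT libraries it was at 102, 99.7, 106 and 125 CPM in females and 114, 122, 129 and 120.0 CPM in males. The genotypes were far apart, and unlike Ern1 and Atf6 this gene was not low in Tg male 2. Herpud1 rose 2.14-fold (log2 1.10, SE 0.062, 95% interval 0.96 to 1.23, adjusted p 1.82e-09, edgeR quasi-likelihood).

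Edem1 (ENSMUSG00000030104.9, chr6:108828641-108859356, plus strand), a lectin-like protein that passes misfolded glycoproteins to degradation, had 9.19, 9.23, 9.27 and 11.8 CPM in Tg females and 11.7, 9.48, 11.9 and 7.66 CPM in Tg males. WT females had 15.4, 17.2, 12.1 and 7.89 CPM and WT males 23.7, 7.67, 9.90 and 8.70 CPM. The 3 highest values belonged to WT male 1, WT female 2 and WT female 1, and the other WT libraries lay within or near the Tg range. The log2 fold change was -0.35 with a wide interval (-0.84 to 0.13, adjusted p 0.263).

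The same 3 WT libraries had the most adipocyte marker RNA: the 7 markers summed to 3216, 3164 and 2464 CPM in WT male 1, WT female 2 and WT female 1, followed by 1321 CPM in Tg female 4. Over all libraries the sum ranged from 174 to 1321 CPM in Tg muscle and from 172 to 3216 CPM in WT muscle, and no adipocyte marker was called or at 0 in all libraries. Without these 4 libraries the log2 fold change of Edem1 was 0.033, and that of Dnajb9 was 0.13 with its call lost (adjusted p 0.365, edgeR quasi-likelihood). That setting left WT females 3 and 4 as the only WT females, and WT female 3 had the highest Dnajb9 in WT muscle (56.6 CPM). With WT female 3 alone left out, Dnajb9 was at 0.34 (adjusted p 0.00510, edgeR quasi-likelihood). Ern1 (2.05), Atf6 (0.93), Herpud1 (1.03) and Dnajc3 (-0.44) kept their calls without the 4 libraries. The part of fat-cell RNA in the values of Edem1 and Dnajb9 was not tested. The 6 macrophage markers summed to 25.1 to 128 CPM in Tg and 40.04 to 123 CPM in WT libraries, and none was called. The 6 fibroblast markers summed to 466 to 1443 CPM in Tg and 630 to 1475 CPM in WT libraries, and the 5 endothelial markers to 229 to 282 CPM in Tg and 202 to 294 CPM in WT libraries, with none called. Of 5 plasma and B cell markers 2 were tested and neither was called, and their sums were 1.14 to 1.82 CPM in Tg and 0.941 to 2.55 CPM in WT libraries. Of the 4 satellite cell markers 1 was lower, with sums of 23.7 to 34.8 CPM in Tg and 25.2 to 43.4 CPM in WT libraries, and of the 9 fibre markers 2 were higher and 2 lower. Over all tested genes 17.2% were called higher and 13.3% lower.

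**Figure D2:**
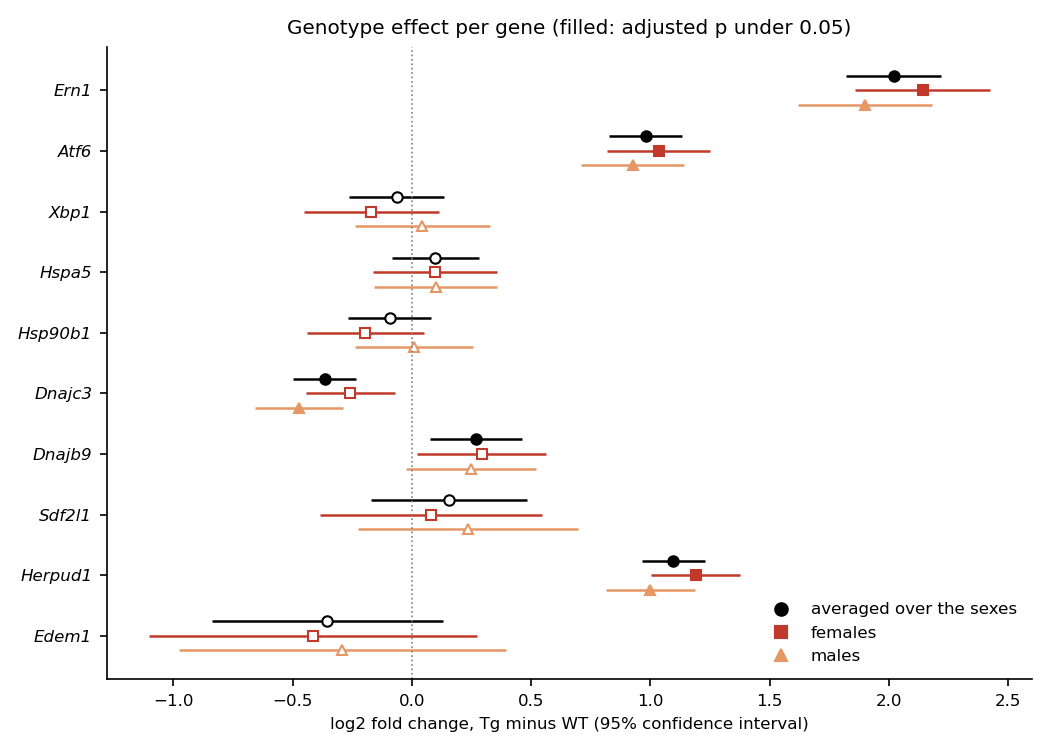
Log2 fold change (Tg minus WT, x axis) of each gene with its 95% interval, averaged over the sexes (black circles), in females (red squares) and in males (orange triangles), with filled symbols for adjusted p under 0.05. The intervals of Ern1, Atf6 and Herpud1 lie right of 0 in all 3 comparisons, and those of Hspa5, Hsp90b1, Sdf2l1, Xbp1 and Edem1 include 0 in the averaged one.

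Ern1 and Atf6, the sensors among the members, had averaged log2 fold changes of 2.02 and 0.98, while the 5 chaperones and co-chaperones lay between -0.37 and 0.27. Eif2ak3, the third sensor, is not a member and lay among the chaperones at 0.058. In each library the mean log2 level of these 2 sensors minus that of the 5 chaperones was taken, with 0.5 CPM added before the logarithm. The difference was 0.23, 0.49, 0.17 and 0.039 in Tg females and 0.18, -0.17, 0.20 and 0.042 in Tg males. It was -1.17, -1.31, -1.68 and -1.13 in WT females and -1.21, -1.11, -1.42 and -1.38 in WT males. Every Tg library was above every WT library, with Tg minus WT at 1.45 and a pooled SD within groups of 0.19. No p is given for this score, because its genes were named with earlier results known. The score, and the ratios to Hspa5 that follow, restate the values of single genes given above and are no separate evidence. Per 100 CPM of Hspa5 there were 12.3 to 19.6 CPM of Ern1 in Tg libraries and 2.25 to 4.85 in WT libraries. For Atf6 the ratio was 33.0 to 50.7 in Tg libraries and 18.6 to 24.6 in WT libraries, and for Herpud1 it was 87.2 to 146 in Tg libraries and 39.7 to 68.7 in WT libraries.

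Levels of different genes were compared per kilobase of exon, counting every base annotated as exon in any transcript of the gene. The lengths of the transcripts present in muscle were not measured. Before division by length, Hspa5 was at 209 ± 29.1 CPM and Herpud1 at 115 ± 11.1 CPM in WT muscle. In Tg muscle they were at 224 ± 27.5 and 245 ± 18.5 CPM, so distances between genes below depend on the lengths used. In Tg muscle Herpud1 was the most abundant member at 105 ± 7.94 CPM per kb, above Hspa5 at 52.9 ± 6.50 and Hsp90b1 at 36.3 ± 2.85 (SD, n = 8). In WT muscle Herpud1 and Hspa5 did not differ beyond their spread, at 49.2 ± 4.77 and 49.4 ± 6.88 CPM per kb, followed by Hsp90b1 at 38.9 ± 6.67. Next in both genotypes came Xbp1, at 22.9 ± 3.66 CPM per kb in Tg and 24.2 ± 6.82 in WT muscle, and Dnajb9, at 20 ± 2.96 in Tg and 16.6 ± 2.46 in WT muscle. These neighbours differed by less than 1 SD of Xbp1 in Tg muscle. Atf6, at 9.56 ± 1.21 CPM per kb, stood beside Dnajc3, at 8.55 ± 0.873, in Tg muscle, and below it in WT muscle, at 4.84 ± 0.298 against 10.996 ± 0.961. Ern1 was the scarcest member of WT muscle at 0.973 ± 0.141 CPM per kb and stood at 3.98 ± 0.646 in Tg muscle, above Sdf2l1 (2.80 ± 0.475) and Edem1 (1.55 ± 0.242).

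In females 3 members were called higher (10.1% of all tested genes) and 0 lower (7.57%), where 17.7% of all genes were called, and 5 members had an unadjusted p under 0.05, as had 4407 of all genes (32.2%). DESeq2 called 4 members in females, the fourth being Dnajc3, which was lower, and 2773 genes in all against 2416 in edgeR. RLE factors and the CPM filter also gave 4 members, with 2320 and 2410 genes in all, and limma-voom gave 3, with 2391. In males 3 were higher (9.85%) and 1 lower (8.39%), where 18.2% were called. The higher genes were Ern1, Atf6 and Herpud1 in both sexes, with log2 fold changes of 2.14, 1.03 and 1.19 in females and 1.90, 0.93 and 1.00 in males. Dnajc3 was at -0.26 in females (adjusted p 0.0521) and at -0.47 in males (adjusted p 0.00130, edgeR quasi-likelihood). Whether the genotype difference itself differed between males and females was tested as an interaction. It was called for 0 members and 1 gene in all (0.00732%); no member had an unadjusted p under 0.05, against 1015 of all genes (7.43%), and DESeq2 and limma-voom also called 0 members. The interaction log2 values ran from -0.24 for Ern1 to 0.21 for Xbp1, and that of Dnajc3 was -0.22 (adjusted p 0.738).

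**Figure D3:**
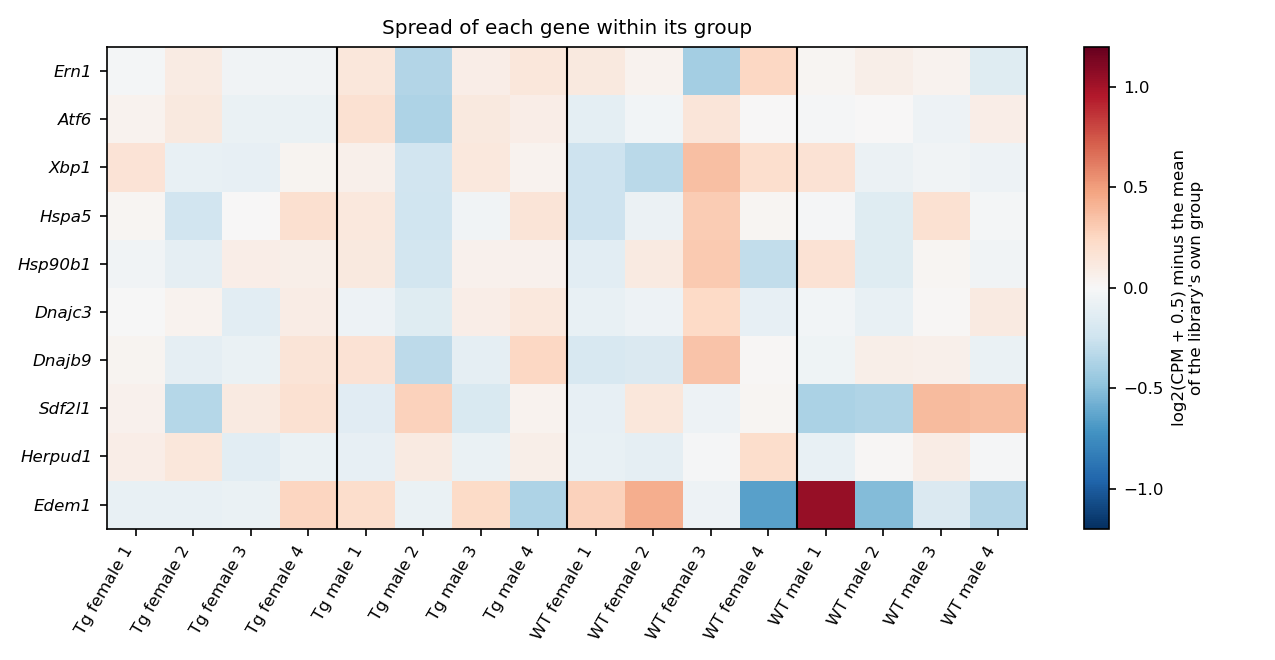
Each gene (rows) in each library (columns, Tg left of WT) as log2(CPM + 0.5) minus the mean of its own group, on a colour scale from -1.2 to 1.2. Tg male 2 is low and WT female 3 is high across several rows, and Edem1 in WT male 1 is the strongest single cell at 1.05.

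Within genotypes, libraries stood apart across several members at once. Tg male 2 was the lowest of the 8 Tg libraries for 7 of the 10 genes, and WT female 3 was the highest of the 8 WT libraries for 6. How often these libraries were lowest or highest over all tested genes was not counted. These libraries were also at the ends of a measure of exon length. The median deviation of genes in the longest 25% (from 6828 bases) minus that in the shortest 25% (up to 2782 bases) was -0.084 in Tg male 2, the lowest of 16, and 0.132 in WT female 3, the highest, against -0.065 to 0.042 in the others. The part of this in the members' values was not tested. With each library left out in turn, Ern1 stayed at a log2 fold change of 1.96 to 2.07, Atf6 at 0.95 to 1.03, Herpud1 at 1.07 to 1.13 and Dnajc3 at -0.39 to -0.32.

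Around the members, genes of the PERK and ATF4 branch were mostly higher in Tg muscle. Of its 12 tested genes 8 were higher and 1 lower, against 17.2% and 13.3% of all tested genes, with a median log2 fold change of 1.06 against -0.012 over all genes. Atf4, the transcription factor whose translation PERK favours, averaged 329.6 ± 17.1 CPM in Tg muscle and 149.5 ± 18.9 CPM in WT muscle (SD, n = 8 each). Its log2 fold change was 1.15 (adjusted p 1.57e-10, edgeR quasi-likelihood). Trib3, a pseudokinase induced by ATF4, averaged 75.2 ± 15.3 CPM in Tg muscle and 1.40 ± 0.617 CPM in WT muscle, a log2 fold change of 5.73. Cebpg, a leucine zipper partner of ATF4, rose by 1.33 and Nupr1, a stress-induced chromatin protein, by 2.44. The sensor of this branch, Eif2ak3, was named here after its values were seen: it averaged 6.87 ± 1.04 CPM in Tg muscle and 6.59 ± 0.695 CPM in WT muscle, with a log2 fold change of 0.058 (95% interval -0.13 to 0.24, adjusted p 0.653).

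**Figure D4:**
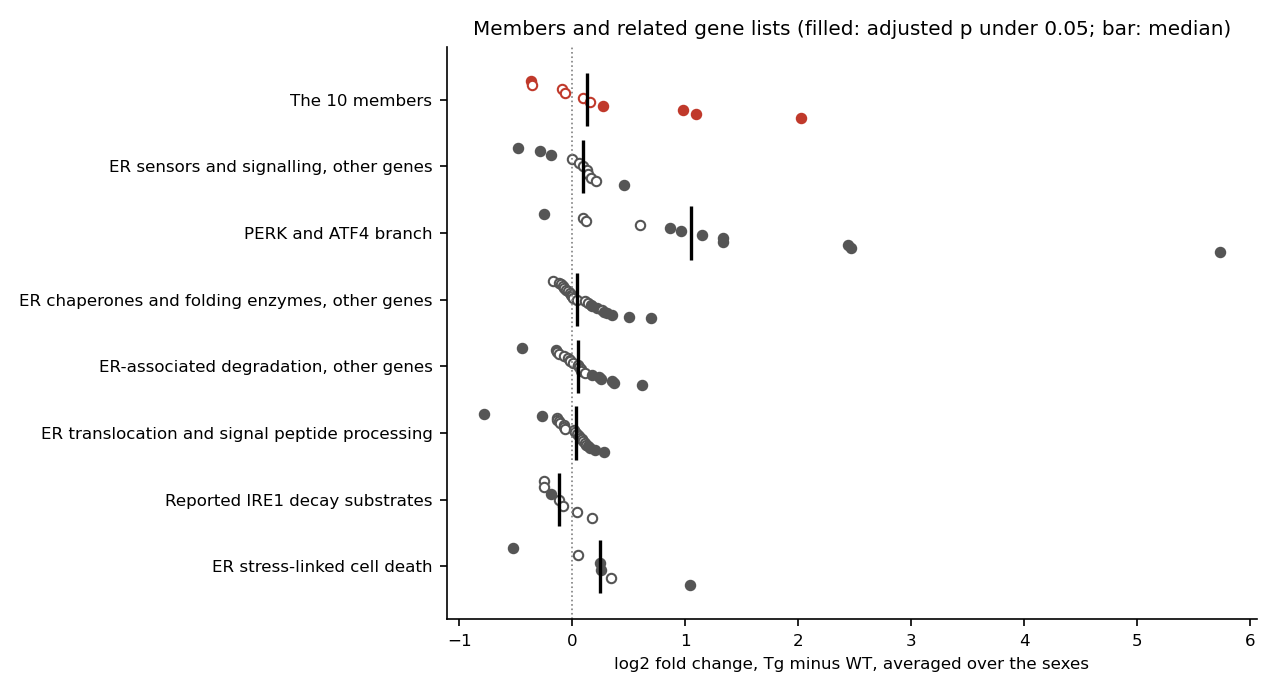
Log2 fold change (Tg minus WT, averaged over the sexes) of the 10 members and of each gene in 7 lists of related ER and stress genes, with filled dots for adjusted p under 0.05 and a bar at the median of each list. The PERK and ATF4 branch has a median of 1.06, and the medians of the other lists lie between -0.11 and 0.25.

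Among 11 other genes of ER sensing and signalling, 1 was higher and 3 were lower, against 17.2% and 13.3% of all tested genes (median log2 0.097). Traf2, the adaptor that binds active IRE1, was higher by 0.46 (adjusted p 0.000566, edgeR quasi-likelihood). Creb3l2, an ATF6-like membrane factor, was at -0.48, Creb3 at -0.29 and Nfyb, a subunit of the factor that binds CCAAT, at -0.19. Creb3 shares exonic bases with Tln1 and Gba2 on the opposite strand. Of 23 other chaperones and folding enzymes 8 were higher and 0 lower (median 0.046), set beside the same 17.2% and 13.3%, and 6 were higher with RLE factors. Over all genes 2065 were higher with RLE factors, against 2344 with the main scaling. Uggt1, the glycoprotein folding sensor, averaged 142 ± 12.2 CPM in Tg muscle and 100.3 ± 11.99 CPM in WT muscle (log2 0.51), and Ero1l, an oxidase that drives disulfide formation, averaged 17.0 ± 3.71 CPM in Tg muscle and 10.4 ± 1.67 CPM in WT muscle (log2 0.70). P4hb, a protein disulfide isomerase, was higher by 0.35 and Dnajb11, a BiP co-chaperone, by 0.22. Without the 4 libraries richest in adipocyte markers 3 of these 23 were called higher, and Dnajb11 was not among those called (log2 0.14, adjusted p 0.0508). In that setting 1966 genes in all were called higher.

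Of 20 tested genes of ER-associated degradation 6 were higher and 2 lower (median 0.054), against 17.2% and 13.3% of all tested genes. With RLE factors 5 were higher and 4 lower, and without the 4 libraries 3 were higher and 3 lower. Over all genes the main fit called 2344 higher and 1814 lower. RLE factors gave 2065 higher and 1999 lower, and leaving out the 4 libraries gave 1966 higher and 1979 lower. Derl1, a channel subunit of the degradation complex, averaged 148 ± 8.97 CPM in Tg muscle and 96.3 ± 7.84 CPM in WT muscle (log2 0.62, adjusted p 1.81e-07, edgeR quasi-likelihood). Os9, a lectin of that complex, was higher by 0.37 and Ubxn4, which recruits the ATPase VCP, by 0.26. Edem3, a relative of Edem1, was lower, at 38.2 ± 3.27 CPM in Tg muscle and 51.8 ± 4.02 CPM in WT muscle (log2 -0.44). Of 22 genes of translocation and signal peptide processing 4 were higher and 2 lower (median 0.034), shares near the 17.2% and 13.3% of all tested genes. With RLE factors 2 were higher and 2 lower, and without the 4 libraries 1 was higher and 5 were lower. Over all genes both settings gave fewer higher and more lower calls than the main fit, as given above. Ssr4, a translocon-associated protein, was at 0.28 and Srprb, a receptor subunit for the signal recognition particle, at 0.20, while Sec61b, a translocon subunit, was at -0.78 and Sec11c, a signal peptidase subunit, at -0.27. Sec61b averaged 8.18 ± 1.17 CPM in Tg muscle and 14.5 ± 6.27 CPM in WT muscle, where it ranged from 10.5 to 29.0 CPM. Without the 4 libraries Sec61b was at -1.05. Srprb was at 0.14 without the 4 libraries and was not called (adjusted p 0.152).

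Of 7 mRNAs reported as substrates of IRE1 decay 0 were higher and 1 was lower (median -0.11), a share near the 13.3% of all tested genes called lower. The median was 0.037 without the 4 libraries. The lower gene was Hgsnat, a lysosomal acetyltransferase, at 28.9 ± 1.44 CPM in Tg muscle and 32.9 ± 1.16 CPM in WT muscle (log2 -0.19, adjusted p 0.00323, edgeR quasi-likelihood). Of 6 tested genes linked to cell death under ER stress 3 were higher and 1 lower (median 0.25), against 17.2% and 13.3% of all tested genes. Bbc3, which encodes the BH3-only protein PUMA, averaged 1.83 ± 0.554 CPM in Tg muscle and 0.882 ± 0.204 CPM in WT muscle (log2 1.04). Bax and Bak1, the pore-forming members of the BCL2 family, were higher by 0.25 and 0.24, and Casp12, a caspase of the ER membrane, was at -0.52. Bak1 shares exonic bases with Ggnbp1 on the opposite strand, and without the 4 libraries it was at 0.22, a similar difference that was not called (adjusted p 0.0978).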

How the data were processed

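The members and gene lists were chosen with earlier results of these data known. Each file holds values per gene symbol that the authors deposited; the labels give no unit, and they were taken as estimated counts, since they are never negative, sum to a different total per library and are 95.02% whole within 0.01. Before the estimated counts were made the authors trimmed and aligned the reads, as far as the tools in the submitters' processing notes show. Libraries were stranded and poly(A)-selected, per the labels' protocols, and cutadapt 1.2.1, TopHat2, Bowtie2, bcl2fastq and the build mm10 are named in the submitters' processing notes. The sources used here do not name the counting program, its annotation or its use of strand. The labels state 4 animals per sex and genotype, with replicate numbers assigned here by accession order, so p-values cover the spread between these libraries. Among 24 pairs of libraries within groups, the lowest median chi-square was 1.22, against 0.455 for 1 library drawn again, so no library was counted as a repeat.

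Estimated counts were rounded to whole numbers and tested with edgeR 4.0.16 (R 4.3.3): TMM factors (0.887 to 1.10), a filter by filterByExpr (minimum count 10, total 15), 1 mean per group over all 16 libraries, a robust quasi-likelihood F test and Benjamini-Hochberg adjustment over 13666 genes, with calls at 0.05. The SE is the log2 fold change divided by the root of F, and intervals have a 95% level. The biological coefficient of variation was 0.201. The fitting step was run on counts simulated from its own model, with far fewer changed genes than were called here. That run checks the code and not how well the model suits these data. Exon lengths and positions are from GENCODE M21. Named were all 10 members, up to 4 called genes of each list with the smallest adjusted p, and Slc25a4. Eif2ak3 and Atf6b were added. Marker lists covered muscle fibres, adipocytes, macrophages, plasma and B cells, fibroblasts, endothelium and satellite cells. The 23 alternatives were other scaling factors, DESeq2 1.42.0, limma-voom 3.58.1, other filters, leaving out each library, and leaving out the 4 libraries richest in adipocyte markers.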

Additional observations from a re-analysis of the deposited data

Results flagged for a closer look

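In each group of 4 libraries the highest and lowest values of every member, and of the difference between sensors and chaperones, were compared with the rest of their group, and 6 values stood far from the other 3 libraries among 44 groups examined. Chance flags about 1 in 20 groups. Ern1 was flagged in Tg females, where Tg female 2 had 39.2 CPM above 3 libraries between 35.4 and 36.0 CPM, and in Tg males, where Tg male 2 had 22.1 CPM below 3 libraries between 29.8 and 31.1 CPM. Xbp1 in WT male 1 was at 71.2 CPM, above the other WT males at 60.0 to 61.0 CPM. Dnajc3 in WT female 3 was at 66.4 CPM, above the other WT females at 52.2 to 53.7 CPM. Edem1 was at 11.8 CPM in Tg female 4, above the other Tg females at 9.19 to 9.27 CPM, and at 23.7 CPM in WT male 1, above the other WT males at 7.67 to 9.90 CPM. WT male 1 and Tg female 4 are among the 4 libraries with the highest sums of adipocyte markers, at 3216 and 1321 CPM. Tg male 2 and Tg male 1 were close to Tg female 4, at 1273 and 1248 CPM. The part of fat-cell RNA in the flagged values was not tested.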

How the results depend on the processing

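No paired analysis was possible because the replicate numbers come from accession order alone. Of 1008 recomputed values, 959 were scored as the same. For single genes this meant the same direction and the same side of the threshold. For counts of called genes it meant a count of similar size, which took in 1716 against 2416 genes in females. For the difference between sensors and chaperones it meant the same sign and a shift under the pooled SD within groups. The calls of Ern1, Atf6 and Herpud1 in all 3 genotype comparisons, and of Dnajc3 averaged and in males, held under all 23 alternatives. Members called averaged over the sexes numbered 5, and 4 to 5 with a library left out. Without the 4 libraries richest in adipocyte markers the log2 fold change of Hspa5 was -0.034 averaged and -0.13 in females, that of Edem1 0.033 averaged and 0.18 in males, and the interaction of Dnajb9 0.13, each with the opposite sign to the value with all libraries; the cause was not tested. Xbp1 in females was called only in that setting among those tried (-0.44, adjusted p 0.0218, edgeR quasi-likelihood). WT female 3 and WT female 4, which had the highest Xbp1 values, were the only WT females left in it. Hsp90b1 in males was -0.021 with RLE factors and -0.021 in DESeq2, against 0.0097. With single libraries left out, values ranged from -0.11 to 0.0026 for Xbp1 averaged, -0.038 to 0.077 for Hsp90b1 in males, -0.47 to 0.20 for Edem1 in males and -0.18 to 0.051 for the interaction of Dnajb9. Dnajc3 in females was called with RLE factors, in DESeq2, with the CPM filter, without Tg male 2 and without WT female 4, at adjusted p of 0.0312 to 0.0477. Dnajb9 in females was called without WT female 3 (adjusted p 0.0258). Genes with a sex difference in the genotype effect numbered 1, and 84 in DESeq2, 8 with no filter, 0 with upper-quartile factors, 7 without the 4 libraries and 0 to 23 with a library left out. Leave-one-out counts of all called genes were 3682 to 4565 averaged, 1716 to 3163 in females and 1851 to 2844 in males. Other scaling moved the median of all genes by under 0.1. Sdf2l1 had 41 to 95 counts per library, the fewest of the members.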
